A study of Mus musculus with 12 samples.

Results

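The sterol synthesis genes described here are Hmgcs1, Idi1, Fdft1, Sqle, Lss, Cyp51, Sc5d and Insig1, 8 of the 24100 genes in the count table. They were chosen by name, and all 8 passed the filter on low counts that left 14263 genes for testing. Of the 8, 7 encode enzymes of cholesterol synthesis and Insig1 encodes a regulator of the pathway. None encodes a receptor for cholesterol uptake, so genes of uptake are given only as a separate list. RNA was sequenced from mouse embryonic fibroblasts (MEFs) of 2 lines isolated from different mothers and immortalized with SV40. In each line, wild type (WT) MEFs carried Rtf2+/+ and RTF2-deficient MEFs carried Rtf2-/lox, in which Cre removes the remaining functional allele. Both genotypes received a retrovirus carrying Cre and were harvested 72 hrs later, so the WT MEFs share the viral and Cre treatment. Each of the 4 groups had 3 libraries, which are technical replicates, and p-values measure the spread between these libraries and not that between embryos.

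Cholesterol is built from acetyl-CoA through the mevalonate pathway. Cells adjust this pathway to their sterol content through SREBP transcription factors, which SCAP carries from the endoplasmic reticulum to the Golgi for activation by proteolysis. When sterols are plentiful, INSIG proteins hold SCAP back and the genes of the pathway are transcribed less. Fibroblasts in culture make sterols themselves and also take up lipoproteins from serum. RTF2 is a protein of the replication fork, and the libraries were made to ask whether its loss changes transcription.

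Total counts lay between 39360167 and 44695002 per library with a median of 42066276. The lowest count of any of the 8 genes in any library was 1043, so counting error is small beside the spread between libraries. The targeted gene Rtf2 was at 44.9, 44.8 and 47.2 CPM (counts per 1e6 counts, TMM-normalized) in WT line 1 and at 5.64, 5.44 and 6.29 CPM in RTF2-deficient line 1. It was at 57.8, 52.9 and 50.9 CPM in WT line 2 and at 6.66, 6.49 and 6.33 CPM in RTF2-deficient line 2. The genotypes did not overlap, as the labels require, with a log2 fold change of -3.01 ± 0.0567 (SE, adjusted p = 2.45e-11 in edgeR's quasi-likelihood test, and p = 0.00216 in a two-sided exact permutation test, the smallest its 924 splits allow). All 12 fibroblast markers were detected in every group, with summed levels of 19253 to 32118 CPM, whereas 6 hepatocyte markers summed to at most 0.287 CPM and none of them passed the filter. The 12 fibroblast markers were uneven. Fn1, Col1a1, Col1a2 and Vim had means of 8564, 6671, 5042 and 3240 CPM over the 12 libraries, whereas Dcn, Fap and Lum had 1.12, 0.878 and 0.586 CPM. WT line 2 had male-like sex-linked values and the other 3 groups female-like ones, with Xist at no more than 0.132 CPM in WT line 2 and at 103 CPM or more elsewhere. Genotype in line 2, and line among WT MEFs, therefore cannot be told apart from sex and embryo for any gene, the 8 included. Rtf2+/+ and Rtf2-/lox MEFs come from different embryos in line 1 as well, so genotype there cannot be told apart from embryo. In bulk RNA, fewer cells expressing a gene and less RNA of it per cell cannot be told apart.

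The positions of the 8 genes and what is known to overlap them bear on how their counts can be read. By GENCODE M21 coordinates on GRCm38 (mm10), Hmgcs1 lies on chromosome 13 from 119690379 to 119708260 (+ strand, 11 exons in its longest coding transcript) and Idi1 on the same chromosome from 8885501 to 8892451 (+ strand, 5 exons). Fdft1 lies on chromosome 14 from 63145150 to 63179578 (- strand, 10 exons) and Sqle on chromosome 15 from 59315077 to 59331192 (+ strand, 11 exons). Lss lies on chromosome 10 from 76531588 to 76557138 (+ strand, 22 exons) and Sc5d on chromosome 9 from 42251595 to 42264256 (- strand, 6 exons). Cyp51 (4081145 to 4104746, - strand, 10 exons) and Insig1 (28071363 to 28078662, + strand, 5 exons) both lie on chromosome 5. Whether the counting used strand is not given in the sources used here, so reads over exons shared with a gene on the other strand cannot be told apart. Such overlap was longest for Fdft1, which shares 774 of its 4227 exonic bases with Ctsb, a lysosomal protease gene that lay between 272 and 523 CPM. For Hmgcs1, Idi1, Lss and Cyp51 the shared part was 12.1%, 9.22%, 3.53% and 3.76% of exonic bases, and Sqle, Sc5d and Insig1 had none.

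Promoters were examined because the 8 genes varied together between libraries, as described further on. RefSeq's promoter table for GRCm38.p6 held 6 of the 8 genes, Hmgcs1, Idi1, Lss, Cyp51, Sc5d and Insig1. The 250 bases before each annotated start were searched on both strands for the letters TCACNCCAC (a form of the sterol regulatory element bound by SREBP), CCAAT (the NF-Y box, ATTGG on the other strand), GGGCGG (the Sp1 box) and CACGTG (an E-box). NF-Y and Sp1 are general factors known to act beside SREBP at many promoters. The CCAAT letters were in 6 of 6 windows, against 33.8% of all 32851 promoter windows of that length, and GGGCGG was in 6 of 6, against 32.7%. The TCACNCCAC letters were in 1 of 6, that of Hmgcs1, against 1.05% of all, and CACGTG was in 2 of 6, those of Sc5d and Insig1, against 6.02%. A match is a description of the letters and not a measured binding site. The 4 windows whose matches all lie upstream of the gene start in both annotations are shown 5′ to 3′ along the gene's strand, with matches in capitals, at chr13:119690101-119690350 (+ strand) for Hmgcs1, chr10:76531355-76531587 (+ strand) for Lss, chr9:42264301-42264550 (- strand) for Sc5d and chr5:28071162-28071362 (+ strand) for Insig1.
Hmgcs1: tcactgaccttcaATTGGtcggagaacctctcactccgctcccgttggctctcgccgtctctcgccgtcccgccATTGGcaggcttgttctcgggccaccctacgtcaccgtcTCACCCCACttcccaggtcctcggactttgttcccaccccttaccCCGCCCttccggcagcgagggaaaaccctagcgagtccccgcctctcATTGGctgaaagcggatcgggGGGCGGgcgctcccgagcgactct
Lss: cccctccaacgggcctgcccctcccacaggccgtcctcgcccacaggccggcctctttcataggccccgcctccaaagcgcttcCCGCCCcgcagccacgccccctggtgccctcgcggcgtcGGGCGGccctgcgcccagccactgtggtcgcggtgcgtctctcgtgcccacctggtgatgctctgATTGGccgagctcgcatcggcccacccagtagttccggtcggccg
Sc5d: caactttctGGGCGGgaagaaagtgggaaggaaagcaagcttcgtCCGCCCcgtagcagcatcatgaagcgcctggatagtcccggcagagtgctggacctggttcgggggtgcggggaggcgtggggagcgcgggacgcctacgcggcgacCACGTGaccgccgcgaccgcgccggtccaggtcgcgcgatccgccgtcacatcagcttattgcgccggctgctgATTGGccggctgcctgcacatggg
Insig1: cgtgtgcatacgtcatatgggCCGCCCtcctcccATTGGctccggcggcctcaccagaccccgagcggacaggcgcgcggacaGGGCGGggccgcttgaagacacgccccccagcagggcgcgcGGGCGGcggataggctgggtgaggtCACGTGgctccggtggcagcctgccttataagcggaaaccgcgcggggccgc
In the Hmgcs1 window, the sterol regulatory element letters begin 137 bases before the RefSeq start. Its ATTGG boxes begin 237, 176 and 45 bases before that start. The E-boxes begin 98 bases before the start in Sc5d and 101 bases before it in Insig1.

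Among the 8 genes, levels per kilobase of the longest coding transcript were highest for Hmgcs1 and lowest for Lss. The mean over 12 libraries was 49.2 ± 14.6 CPM per kilobase (SD) for Hmgcs1, 35.7 ± 8.63 for Sqle, 35.1 ± 12.9 for Idi1 and 31.9 ± 8.99 for Cyp51. It was 26.1 ± 9.09 CPM per kilobase for Insig1, 18.4 ± 4.44 for Fdft1, 11.6 ± 2.46 for Sc5d and 8.69 ± 2.86 for Lss. The ranges over the 12 libraries overlapped for every pair of neighbours in this order, while the means of Fdft1 and Sc5d, and of Sc5d and Lss, lay further apart than the SD of either gene. The lengths come from GENCODE M21 and not from the gene models that the authors used.

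The first question was whether loss of RTF2 changed these genes. None of the 8 passed an adjusted p of 0.05 over both lines, where 13.2% of all genes tested did (8.18% lower and 4.98% higher in RTF2-deficient MEFs), and none of the 8 had an unadjusted p under 0.05. Their log2 fold changes, RTF2-deficient over WT, lay between -0.25 and -3.64e-05, with a median of -0.12 against 0.00194 over all genes. Adjusted p-values ran from 0.51 to 0.9999. All 8 estimates were at or below 0, as were 49.6% of those of all genes. The spread between libraries was wide, and the 95% confidence intervals reached down to a fold of 0.564 and up to a fold of 1.39, so this fit, which does not use the replicate numbers, leaves differences within those limits unresolved.

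**Figure D1:**
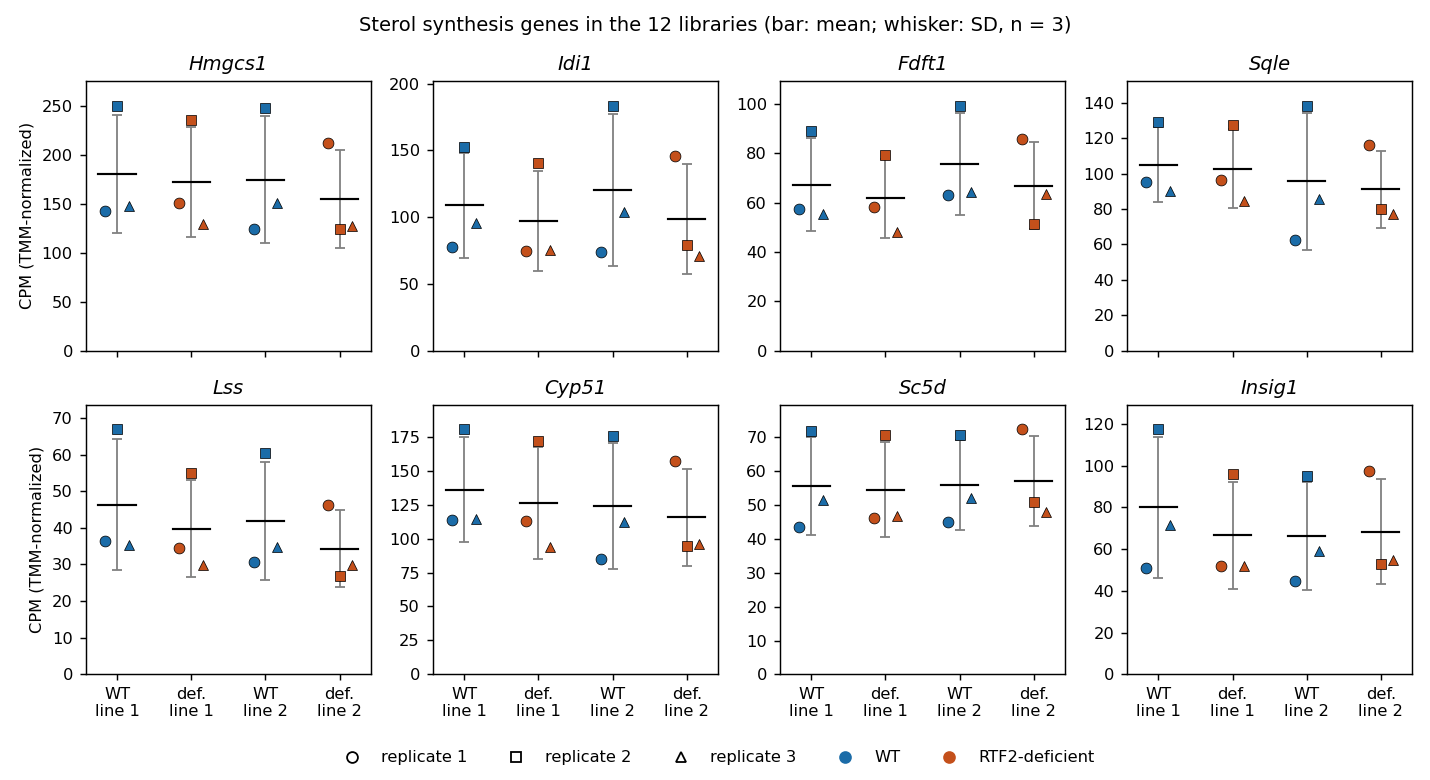
CPM (TMM-normalized, vertical axes from 0) of the 8 sterol synthesis genes in each of the 12 libraries, by group, with bars for the mean and whiskers for the SD of 3 libraries, blue for WT, orange for RTF2-deficient and symbols for the replicate number. In every panel the highest library is replicate 2 in 3 of the groups and replicate 1 in RTF2-deficient line 2, and the genotypes overlap.

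Hmgcs1 encodes the synthase that makes HMG-CoA, an early step of the pathway. In line 1 it was at 143, 250 and 148 CPM in the WT libraries (replicates 1 to 3) and at 151, 236 and 129 CPM in the RTF2-deficient ones. In line 2 it was at 124, 248 and 151 CPM in WT and at 213, 125 and 128 CPM in RTF2-deficient MEFs. One library of each group stood well above the other two, and the groups overlapped. The group means were 180 ± 60.7 (SD, n = 3) and 172 ± 56.4 CPM in line 1 and 175 ± 65.2 and 155 ± 49.9 CPM in line 2, WT first. The log2 fold change over both lines was -0.12 (95% confidence interval -0.62 to 0.38).

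Idi1 encodes the isomerase that interconverts the isoprenoid building blocks made from mevalonate. It was at 77.6, 153 and 95.8 CPM in WT line 1 and at 74.7, 140 and 75.6 CPM in RTF2-deficient line 1. Line 2 had 73.7, 184 and 104 CPM in WT and 146, 79.2 and 71.0 CPM in RTF2-deficient MEFs. The same library of each group was highest as for Hmgcs1, and in WT line 2 the highest of Idi1 was 2.49 times the lowest, the widest range of any of the 8 genes in any group. The log2 fold change over both lines was -0.23 (-0.83 to 0.37).

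Fdft1 encodes squalene synthase, the first enzyme committed to sterols. It was at 57.6, 88.9 and 55.3 CPM in WT line 1 and at 58.2, 79.3 and 47.9 CPM in RTF2-deficient line 1. Line 2 had 63.2, 99.4 and 64.3 CPM in WT and 85.9, 51.4 and 63.4 CPM in RTF2-deficient MEFs. The highest library was again the same, and the log2 fold change over both lines was -0.15 (-0.55 to 0.25). Sqle encodes squalene epoxidase, which adds the oxygen to squalene. It was at 95.3, 129 and 90.3 CPM in WT line 1 and at 96.3, 128 and 84.4 CPM in RTF2-deficient line 1. In line 2 it was at 62.7, 138 and 85.4 CPM in WT and at 116, 80.1 and 77.0 CPM in RTF2-deficient MEFs. WT line 1 had the narrowest range, 1.43 times between its highest and lowest library, and the log2 fold change over both lines was -0.05 (-0.46 to 0.36).

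Lss encodes lanosterol synthase, which closes the sterol rings. It was at 36.5, 66.9 and 35.3 CPM in WT line 1 and at 34.4, 54.9 and 29.9 CPM in RTF2-deficient line 1. In line 2 it was at 30.6, 60.4 and 34.7 CPM in WT and at 46.4, 26.8 and 29.9 CPM in RTF2-deficient MEFs. Lss had the most negative estimate of the 8 genes, a log2 fold change of -0.25 (-0.77 to 0.26, adjusted p = 0.51), and its groups still overlapped. Cyp51 encodes the demethylase that acts on lanosterol. It was at 114, 180 and 114 CPM in WT line 1 and at 113, 172 and 93.5 CPM in RTF2-deficient line 1. Line 2 had 85.3, 175 and 112 CPM in WT and 157, 94.5 and 95.9 CPM in RTF2-deficient MEFs. The high library of each group was the same as before, and the log2 fold change over both lines was -0.11 (-0.58 to 0.37).

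Sc5d encodes a desaturase late in the pathway. It was at 43.5, 71.7 and 51.6 CPM in WT line 1 and at 46.0, 70.6 and 46.7 CPM in RTF2-deficient line 1. Line 2 had 44.97, 70.5 and 52.0 CPM in WT and 72.3, 50.8 and 47.9 CPM in RTF2-deficient MEFs. Its estimate over both lines was the closest to 0, with an interval from -0.37 to 0.37 on the log2 scale. Insig1, which encodes the sterol-sensitive anchor of SCAP and is itself a known target of SREBP, was at 51.1, 117 and 71.5 CPM in WT line 1 and at 52.1, 96.2 and 51.8 CPM in RTF2-deficient line 1. In line 2 it was at 44.6, 95.2 and 59.2 CPM in WT and at 97.2, 52.8 and 54.7 CPM in RTF2-deficient MEFs. Its log2 fold change over both lines was -0.11 (-0.69 to 0.47), and Insig1 followed the enzymes in which library was highest.

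Within each of the 8 genes, the highest group mean was 1.05 to 1.35 times the lowest, and 5 orders of the groups occurred among the 8 genes. WT line 1 was highest for Hmgcs1, Sqle, Lss, Cyp51 and Insig1, WT line 2 for Idi1 and Fdft1, and RTF2-deficient line 2 for Sc5d. Ranges did not separate neighbours in these orders, since all 48 pairs of groups, 6 for each gene, overlapped. Each group held a high library and ranges leave out the replicate numbers, so the overlap does not show equal levels. Across all genes tested, the 6 WT and the 6 RTF2-deficient libraries did not overlap for 5.97%, and for 0 of the 8 genes.

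Within lines the outcome was the same at the level of calls. In line 1 none of the 8 passed the test, against 3.2% of all genes, with log2 fold changes of -0.26 for Insig1 to -0.03 for Sc5d and a median of -0.12. In line 2 none passed, against 12.5% of all genes, with log2 fold changes of -0.29 for Idi1 and Lss to 0.04 for Insig1 and a median of -0.14. The difference of the genotype effect between lines passed for none, against 1.29% of all genes, with values between -0.12 for Idi1 and 0.30 for Insig1. Between the WT lines none of the 8 passed, against 14% of all genes, and between the RTF2-deficient lines none, against 1.94%. In each of these comparisons, 0 of the 8 had an unadjusted p under 0.05.

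The replicate numbers mattered in line 1. Libraries with the same number deviated together there, with correlations of 0.62, 0.43 and 0.48 across genes between WT and RTF2-deficient MEFs, and a fit to the 6 libraries of line 1 with the number as a block, added after seeing the data, gave smaller standard errors (0.0468, against 0.347 in the fit to all 12 libraries, for the log2 fold change of Lss). In that fit 3 of the 8 genes fell in RTF2-deficient MEFs and none rose, against 29.1% of all genes called and 14.7% called lower. Lss had a log2 fold change of -0.21 ± 0.0468 (SE, adjusted p = 0.0118), Idi1 of -0.17 ± 0.0508 (adjusted p = 0.0345) and Insig1 of -0.25 ± 0.0744 (adjusted p = 0.0386). The other 5 lay between -0.12 for Cyp51 and -0.03 for Sc5d. The same 6 libraries without the block gave 0 calls among the 8, against 2.68% of all genes. In line 2 same-numbered libraries did not deviate together (-0.59, 0.17 and -0.28), whereas WT replicates 1, 2 and 3 correlated with RTF2-deficient replicates 3, 1 and 2 at 0.65, 0.61 and 0.37. The labels do not pair those libraries and no fit was made with such pairs, so the line 2 result rests on the fit without a block.

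**Figure D2:**
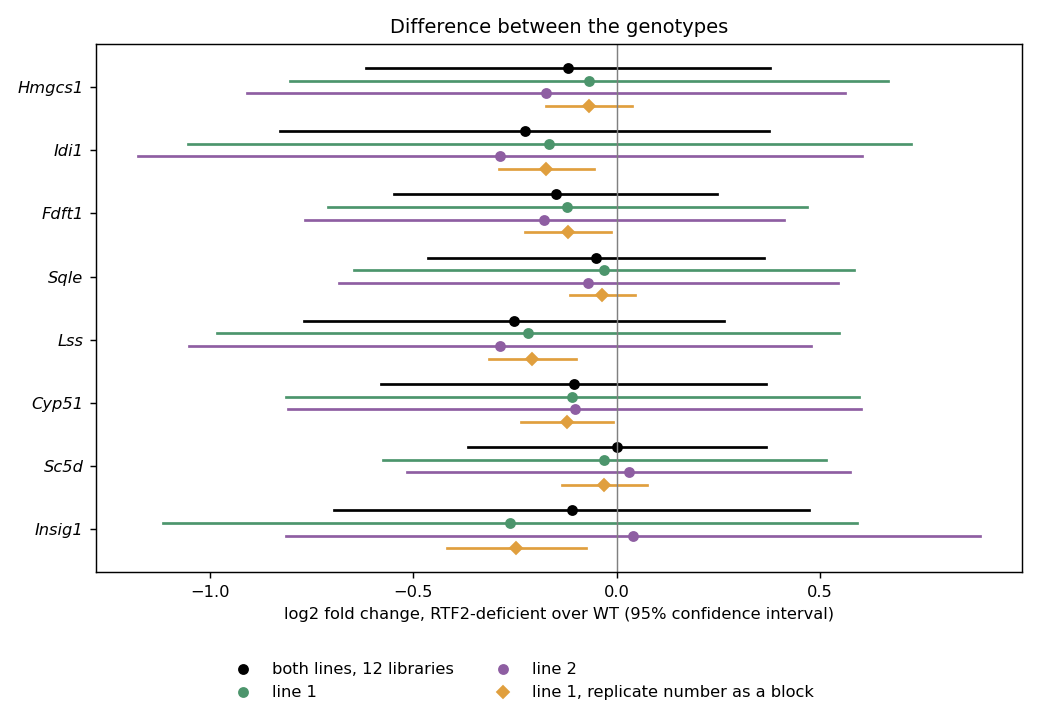
Log2 fold change of the 8 genes, RTF2-deficient over WT (horizontal axis), with 95% confidence intervals, over both lines (black), within line 1 (green), within line 2 (purple) and within line 1 with the replicate number as a block (amber diamonds). Every interval without the block crosses 0, and with the block those of Idi1, Fdft1, Lss, Cyp51 and Insig1 lie below 0, of which Idi1, Lss and Insig1 had an adjusted p under 0.05.

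The libraries of a group differed more in these genes than in most. The SD of log2 CPM within groups was 0.34 for Sc5d, 0.37 for Fdft1, 0.39 for Sqle, 0.45 for Cyp51, 0.46 for Hmgcs1, 0.48 for Lss, 0.54 for Insig1 and 0.56 for Idi1. The median over all genes tested was 0.18, and over the 9281 genes with a mean above 10 CPM it was 0.14. Among those better-expressed genes the 8 stood between the 93.0th and the 97.5th percentile of this SD. All 8 were highest in replicate 2 of WT line 1, of RTF2-deficient line 1 and of WT line 2 and in replicate 1 of RTF2-deficient line 2. Of all genes tested, 6.86% were highest in the same 4 libraries, and of those above 10 CPM, 8.77%. This pattern was noticed in the values and is given with no test.

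**Figure D3:**
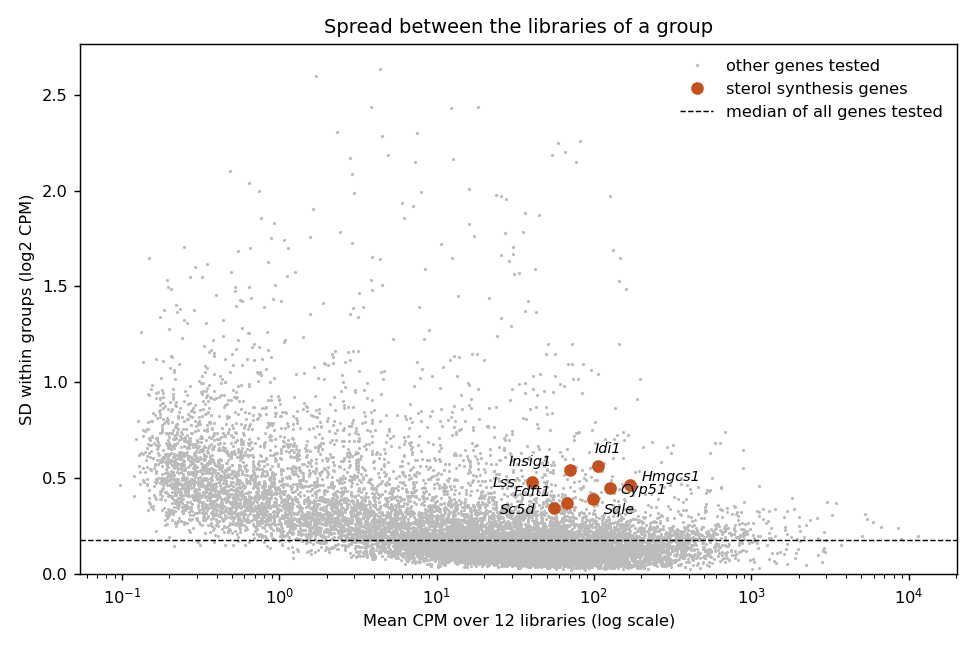
Mean CPM over 12 libraries (horizontal axis, log scale) against the SD of log2 CPM within groups (vertical axis) for every gene tested (grey) and the 8 sterol synthesis genes (orange), with the median of all genes as a dashed line. The 8 genes have SDs between 0.34 and 0.56, above the median of 0.18.

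The 8 genes also tracked each other closely from library to library. The summed level was 618, 1058 and 662 CPM in WT line 1 and 626, 977 and 559 CPM in RTF2-deficient line 1. It was 530, 1071 and 662 CPM in WT line 2 and 933, 560 and 568 CPM in RTF2-deficient line 2. The high libraries thus lay between 933 and 1071 CPM and the other 8 between 530 and 662 CPM. Among the high libraries those of WT were at 1058 and 1071 CPM and those of RTF2-deficient MEFs at 977 and 933 CPM. Among the other 8 the genotypes overlapped, and neither difference was tested. After the group means were subtracted, the 28 pairs of these genes had Pearson's r between 0.899 and 0.995 with a median of 0.959, over 12 libraries that every pair shares.

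Genes outside the 8 were ranked by how closely their log2 CPM followed the mean of the 8 standardized genes over the 12 libraries, among 9273 genes above 10 CPM. The 4 closest were enzymes of the same pathway. Mvd (mevalonate diphosphate decarboxylase) had r = 0.979, Fdps (farnesyl diphosphate synthase) r = 0.970, Nsdhl (a sterol dehydrogenase) r = 0.962 and Msmo1 (a methylsterol oxidase) r = 0.943. Commd10, Aacs (acetoacetyl-CoA synthetase), Pmvk, Rnh1, Dhcr7 and Stard4 followed, between 0.939 and 0.929. With the group means subtracted, Nsdhl (0.993), Scd2, a stearoyl-CoA desaturase (0.991), Acsl3, an acyl-CoA synthetase (0.984), Mvd (0.982) and Fads2, a fatty acid desaturase (0.982), were among the closest, with Grhpr, Nnt, Acat2 and Dhcr7 between 0.979 and 0.977. These r values describe libraries that share their group and normalization and carry no test.

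Of the 15 other enzymes of mevalonate and sterol synthesis, 12 were highest in the same 4 libraries as the 8 genes, and so were 8 of 15 enzymes of fatty acid synthesis. For example, Fdps was at 88.9, 150 and 86.3 CPM in WT line 1 and at 134, 83.3 and 76.0 CPM in RTF2-deficient line 2. Scd2 was at 816, 1488 and 780 CPM in WT line 1 and at 1323, 770 and 696 CPM in RTF2-deficient line 2. Both follow the 8 genes, high in replicate 2 of the first group and in replicate 1 of the other. In the other lists the counts were 3 of 11 SREBP pathway regulators, 4 of 12 genes of cholesterol uptake and transport, 0 of 9 genes of efflux, esterification and oxysterols and 0 of 8 non-sterol isoprenoid enzymes. The differences between these counts were not tested.

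**Figure D4:**
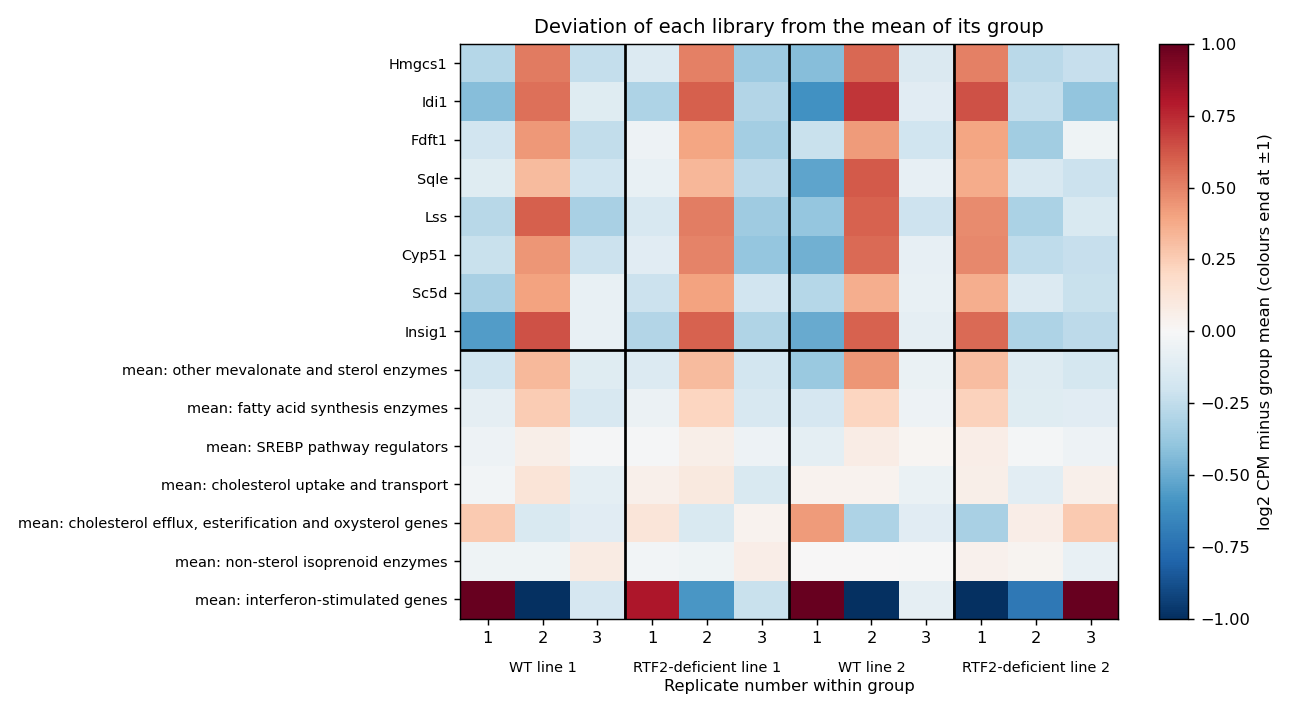
Log2 CPM minus the mean of its group (colour, ending at 1 in either direction) for the 8 genes and for the mean of 7 gene lists (rows) in the 12 libraries (columns, by group and replicate number). The 8 genes are above their group mean in replicate 2 of 3 groups and in replicate 1 of RTF2-deficient line 2, the other sterol and fatty acid enzymes deviate in the same direction in those libraries, and the interferon-stimulated genes are below their group mean in those libraries.

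Interferon-stimulated genes, the antiviral genes induced by interferon, moved between the same libraries. The mean log2 CPM of 14 of them was 3.51, 0.71 and 1.85 in WT line 1 and 2.01, 0.61 and 0.97 in RTF2-deficient line 1. It was 8.62, 4.54 and 6.45 in WT line 2 and 1.92, 3.35 and 6.91 in RTF2-deficient line 2. In each group the library with the highest level of the 8 sterol genes had the lowest level of these 14. Singly, 11 of the 14 were lowest in all 4 of those libraries, as were 6.54% of all genes tested. The summed level of the 14 genes ranged from 68.4 to 393 CPM in WT line 1, from 65.6 to 143 CPM in RTF2-deficient line 1, from 632 to 7132 CPM in WT line 2 and from 125 to 2649 CPM in RTF2-deficient line 2. Between groups, equal sterol gene levels went with unlike levels of the 14, since replicate 2 of WT line 1 and of WT line 2 both had a mean of 6.91 log2 CPM over the 8 sterol genes. The part of these genes in the spread of the sterol genes was not tested.

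**Figure D5:**
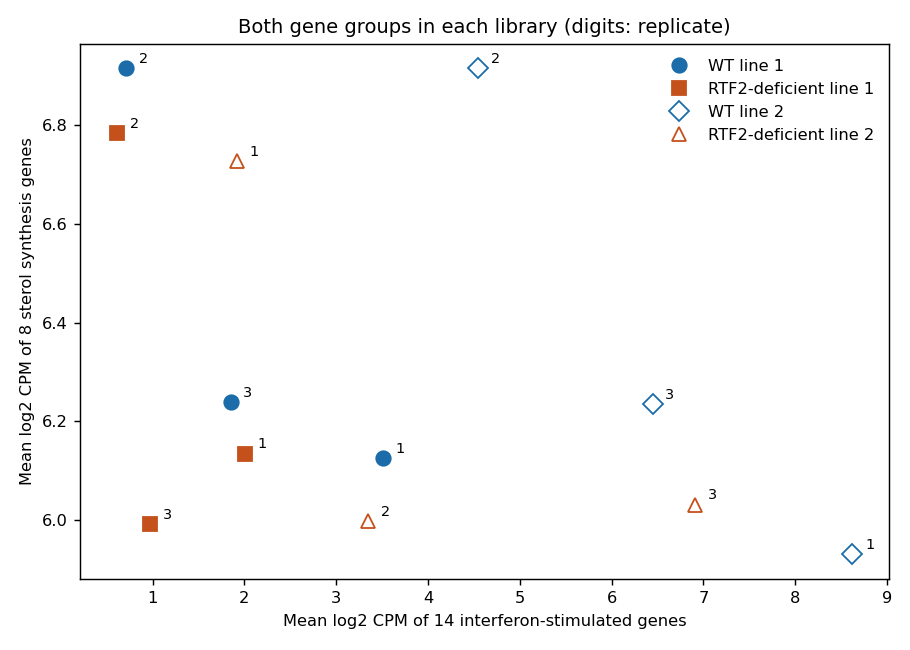
Mean log2 CPM of 14 interferon-stimulated genes (horizontal axis) against the mean log2 CPM of the 8 sterol synthesis genes (vertical axis) in each library, with symbols and colours for the groups and digits for the replicate number. In each group the library with the highest sterol gene mean is the one with the lowest interferon-stimulated mean.

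A fit with the interferon-stimulated mean as a further term moved the estimates of the 8 genes away from 0. Over both lines their median log2 fold change was then -0.37, with 0 called, against 13.7% of all genes. In line 2, Idi1 was called with a log2 fold change of -0.88 (95% confidence interval -1.43 to -0.33, adjusted p = 0.0377), against 14.9% of all genes. Between the WT lines, Idi1 was called with a log2 fold change of 1.28, line 2 over line 1 (0.58 to 1.98, adjusted p = 0.0184), against 19.6% of all genes, where without the term it was 0.15 (-0.74 to 1.04). The interferon-stimulated mean itself differed between groups, at 0.71 to 3.51 in WT line 1 and 4.54 to 8.62 in WT line 2. In RTF2-deficient line 2 it was 1.92 to 6.91. Estimates with the term therefore carry a slope across groups of unlike level, and these calls cannot be told apart from that step.

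The other genes of the pathway were read in the same comparison of genotypes over both lines. Of the 15 other mevalonate and sterol enzymes, 2 fell in RTF2-deficient MEFs and 0 rose, with a median log2 fold change of -0.17. That share of calls is near the 13.2% of all genes tested. Acat2, an acetyl-CoA acetyltransferase at the entry of the pathway, was at 48.7, 78.9 and 47.8 CPM in WT line 1 and at 32.1, 43.95 and 28.7 CPM in RTF2-deficient line 1. Line 2 had 44.6, 86.4 and 49.0 CPM in WT and 45.1, 26.8 and 31.7 CPM in RTF2-deficient MEFs. Within line 1 the groups did not overlap, in line 2 they did by the high RTF2-deficient replicate 1, and the log2 fold change was -0.77 (-1.21 to -0.32, adjusted p = 0.0289). Its close relative Acat3 lay at or under 0.695 CPM in every library. Leaving out 1 library ended the call of Acat2 in 6 of 12 cases, with adjusted p up to 0.0741 (without RTF2-deficient line 2 replicate 2).

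Tm7sf2, which encodes a sterol reductase, was at 4.80, 5.35 and 4.51 CPM in WT line 1 and at 2.53, 2.62 and 2.36 CPM in RTF2-deficient line 1. In line 2 it was at 2.19, 4.67 and 2.95 CPM in WT and at 1.95, 1.95 and 2.03 CPM in RTF2-deficient MEFs. The genotypes did not overlap within either line, and the log2 fold change was -0.85 (-1.20 to -0.49, adjusted p = 0.00536), called also within line 1 (-0.96, adjusted p = 0.0493). Tm7sf2 shares 12.1% of its exonic bases with Vps51 on the same strand. The remaining 13 enzymes did not pass, among them Msmo1 at -0.07 (-0.64 to 0.50), Fdps at -0.08 (-0.60 to 0.44) and Nsdhl at -0.33 (-0.85 to 0.19). With the replicate block in line 1, 7 of these 15 enzymes fell and 0 rose, where 14.7% of all genes fell and 14.4% rose, Acat2 at -0.73 (adjusted p = 4.08e-05) and Nsdhl at -0.27 (adjusted p = 0.00318) among them. With the mean of the 8 genes as a further term, an alternative chosen after seeing the data in which 16.9% of all genes were called, Acat2 had a log2 fold change of -0.64 (adjusted p = 5.10e-05) and Tm7sf2 of -0.77 (adjusted p = 0.00416) over both lines. In that fit Nsdhl fell too (-0.18, adjusted p = 0.0276), and of the 15 enzymes 3 fell and 1 rose. Nsdhl is on the X chromosome, and its fall with the block in line 1 is between groups that both had female-like Xist levels, whereas in line 2 the sex-linked values differ with genotype.

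Among 11 SREBP pathway regulators, 1 fell and 1 rose over both lines, where 8.18% of all genes tested fell and 4.98% rose. Scap, the carrier of SREBP, was between 67.3 and 98.2 CPM in WT and between 60.2 and 76.1 CPM in RTF2-deficient libraries, with a log2 fold change of -0.27 (-0.43 to -0.10, adjusted p = 0.0361). The call of Scap was lost in 7 of 12 fits without 1 library and was made with the block in line 1 (-0.17, adjusted p = 0.00959). Mbtps2, a protease that releases SREBP, was between 34.7 and 44.1 CPM in WT and between 44.1 and 50.1 CPM in RTF2-deficient libraries, with a log2 fold change of 0.31 (0.17 to 0.45, adjusted p = 0.00725). Mbtps2 and Pgrmc1 are on the X chromosome, as is Nsdhl. Within line 1, where both genotypes had female-like values, Mbtps2 had a log2 fold change of 0.24 (0.04 to 0.43, adjusted p = 0.227) and did not pass without the block, and it rose with the block (0.24, 0.14 to 0.34, adjusted p = 0.00483). Srebf2, which encodes the SREBP that mainly drives sterol genes, had a log2 fold change of 0.07 (-0.25 to 0.38). Pgrmc1 and Mbtps1, which were well expressed, had log2 fold changes of -0.05 (-0.25 to 0.15) and 0.12 (-0.01 to 0.25), and Pgrmc1 rose with the block in line 1 (0.15, adjusted p = 0.00972). In that fit 2 of the 11 regulators fell and 2 rose, where 14.7% of all genes fell and 14.4% rose.

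Of 12 genes of cholesterol uptake and transport, 0 passed over both lines by edgeR, against 13.2% of all genes tested. Of the 12, 1 had an unadjusted p under 0.05, and the median log2 fold change was 0.02. Npc2, a lysosomal cholesterol carrier, was at -0.38 (-0.90 to 0.13), Scarb1, a receptor for HDL, at 0.0030 (-0.27 to 0.27) and Stard4, a sterol transfer protein, at 0.04 (-0.22 to 0.31). With the block in line 1, 1 of the 12 fell, Npc2 (-0.13, adjusted p = 0.0241), and 1 rose, where 14.7% of all genes fell and 14.4% rose. Of 9 genes of efflux, esterification and oxysterols, 1 fell and 1 rose over both lines, where 8.18% of all genes tested fell and 4.98% rose. Cyp27a1, a sterol hydroxylase, was low, between 0.669 and 2.13 CPM in WT and between 0.171 and 0.633 CPM in RTF2-deficient libraries, with a log2 fold change of -1.23 (-1.94 to -0.53, adjusted p = 0.0270), and with the interferon-stimulated mean as a term it was -0.79 and not called (adjusted p = 0.0640). Apoe, an apolipoprotein, was at 22.2, 16.6 and 15.4 CPM in WT line 1 and at 27.0, 19.8 and 20.7 CPM in RTF2-deficient line 1. Line 2 had 7.36, 4.17 and 5.08 CPM in WT and 8.64, 9.62 and 13.9 CPM in RTF2-deficient MEFs. The genotypes overlapped in line 1 and not in line 2, and the log2 fold change was 0.63 (0.21 to 1.04, adjusted p = 0.0497), a call that 9 of the 12 fits without 1 library did not make. The replicate block over both lines did not make that call either (adjusted p = 0.0501). Soat1, which esterifies cholesterol, was at 0.46 (0.12 to 0.81, adjusted p = 0.0759), Abca1, an exporter of cholesterol, at 0.27 (-0.31 to 0.85) and Nr1h2, an oxysterol receptor, at -0.11 (-0.24 to 0.02), and none of the 3 passed over both lines. With the block in line 1, 2 of the 9 fell and 3 rose, where 14.7% of all genes fell and 14.4% rose. Those called included Cyp27a1 (-1.05, adjusted p = 0.0428), Apoe (0.32, adjusted p = 0.00483), Abca1 (0.48, adjusted p = 0.0269) and Soat1 (0.15, adjusted p = 0.0205).

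Of 8 non-sterol isoprenoid enzymes, 1 rose and 0 fell over both lines, where 4.98% of all genes tested rose and 8.18% fell. Ggps1, geranylgeranyl diphosphate synthase, was between 38.5 and 46.3 CPM in WT and between 43.6 and 52.7 CPM in RTF2-deficient libraries, with a log2 fold change of 0.21 (0.08 to 0.34, adjusted p = 0.0344), a call lost in 7 of 12 fits without 1 library and with the replicate block over both lines (adjusted p = 0.0567). Nus1 and Dhdds, which make dolichol, were at 0.16 (0.04 to 0.27) and -0.18 (-0.33 to -0.04), and Fnta, a subunit of protein prenyltransferases, at 0.01 (-0.13 to 0.16), and none of these passed after adjustment. With the block in line 1, 2 of the 8 fell, Dhdds (-0.19, adjusted p = 0.00868) among them, and 1 rose, Nus1 (0.17, adjusted p = 0.0291). In that fit 14.7% of all genes fell and 14.4% rose. Of 15 enzymes of fatty acid synthesis, another SREBP-regulated pathway, 1 fell and 1 rose over both lines, a share of calls near the 13.2% of all genes tested. Acss2, an acetyl-CoA synthetase, had a log2 fold change of -0.82 (-1.24 to -0.41, adjusted p = 0.0139), and Gpam, a glycerol-phosphate acyltransferase, of 0.25 (0.11 to 0.38, adjusted p = 0.0228). With the interferon-stimulated mean as a term Gpam was at 0.19 and not called (adjusted p = 0.0632). Scd2, Fasn and Acly, the best expressed of this list, lay at 0.16, -0.04 and 0.05 and did not pass. With the block in line 1, 4 of the 15 fell and 0 rose, where 14.7% of all genes fell and 14.4% rose. Those that fell included Acss2 (-0.73, adjusted p = 0.00165) and Scd2, whose estimate there was negative (-0.16, adjusted p = 0.0139).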

How the data were processed

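RNA was measured in 12 libraries of MEFs. The authors deposited a table of raw counts, 1 whole number per Entrez gene and library, with no normalization. Their methods name 75-base single reads, Salmon, UCSC mm10 gene models and tximport, whereas HTSeq and mm10 stand in the processing notes of the submitters, and which tool made the counts is unresolved. Libraries were grouped by their genotype and line labels, and 24045 of 24100 identifiers matched RefSeq's annotation of GRCm38. Counts were filtered with filterByExpr on the 4 groups, TMM-normalized and tested with edgeR 4.0.16 (glmQLFit and glmQLFTest, R 4.3.3) with terms for line and genotype. Contrasts within and between lines used a layout of the 4 groups. P-values were adjusted by Benjamini-Hochberg over all genes tested, and a call needed an adjusted p under 0.05. Standard errors were derived from each coefficient and its F statistic. Log2 CPM used a prior count of 2.

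The replicate numbers were checked by correlating deviations from the group means. In line 1 every same-numbered pair exceeded 0.1, so the number was used there as a block. Totals of 39360167 to 44695002 counts limit little at these levels. The script was tested on simulated data. Alternatives were other normalizations and filters, DESeq2 1.42.0, limma 3.58.1 voom, sums, added terms and each library left out.

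The 8 genes, the lists and the tests were chosen with earlier results of these data known. Named genes were the 8 genes, Rtf2, listed genes with an adjusted p under 0.05 over both lines, up to 3 better-expressed others of each list, and the 10 closest genes by each measure of likeness. A few genes that this rule covers are not reported here, although the counts over lists include them. Ctsb, Acat3, Vps51, Xist, Srebf2 and the single fibroblast markers were named outside this rule, after their values were seen. Markers of blood (summed level at most 13.5 CPM), endothelial (21.5 CPM), epithelial (13.1 CPM) and adipocyte (42.0 CPM) cells were low beside the summed level of the fibroblast markers, of which Dcn, Fap and Lum were low as well.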

Additional observations from a re-analysis of the deposited data

Results flagged for a closer look

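Of 18 sets of 6 libraries of one genotype examined for a sample far from the others (the 8 genes and the total count), 1 was flagged, a number near what chance gives, about 1 in 20. RTF2-deficient line 2 replicate 2 had a total of 39360167 counts, the lowest of all libraries and set apart from the other 5 of its genotype. The levels of the 8 genes in that library, which are scaled to its total, were not set apart.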

How the results depend on the processing

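The count of 0 called among the 8 genes held over both lines, between lines and within the RTF2-deficient genotype under the other normalizations, filters, tests and terms run, and in all 6 comparisons with each library left out in turn (0 to 0). The fit with the mean of the other 7 genes takes out the change they share, and the summed libraries leave 4 samples, so their counts of 0 say nothing about stability. It became 3 in line 1 with the replicate block and only the 6 libraries of that line, and 1 in line 2 and 1 between the WT lines with the interferon-stimulated mean as a term. With the replicate block on all 12 libraries it stayed at 0. In line 2 same-numbered libraries correlated at -0.587, 0.170 and -0.279, while WT replicates 1, 2 and 3 correlated with RTF2-deficient replicates 3, 1 and 2 at 0.654, 0.612 and 0.367, a hint from the data that the labels do not give. With each library left out, the median log2 fold change of the 8 genes ranged from -0.25 to 0.032 over both lines, from -0.38 to 0.14 in line 1 and from -0.39 to 0.20 in line 2. The Rtf2 difference stayed between -3.03 and -2.96.

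The sign of single genes near 0 moved. Sc5d was at 0.0075 with RLE, 0.0011 with upper-quartile normalization, 0.0097 without a filter, 0.0030 with a filter of 1 CPM in 6 libraries, 0.0075 with DESeq2, 0.019 with the replicate block, 0.0019 with voom and 0.00031 without a term for line. With the mean of the other 7 genes as a term, chosen after seeing the data, Hmgcs1 was at 0.012, Sqle at 0.075, Cyp51 at 0.017, Sc5d at 0.098 and Insig1 at 0.047. With 1 library left out, the ranges were -0.25 to 0.038 for Hmgcs1, -0.14 to 0.11 for Sqle, -0.23 to 0.041 for Cyp51, -0.10 to 0.10 for Sc5d and -0.28 to 0.078 for Insig1. None of these was called, and the cause was not tested. The sum of each group's libraries, a fit of 4 samples, called none of the other named genes. Leaving out 1 library also ended the call of Scap in 7 of 12 cases, of Ggps1 in 7, of Gpam in 4, of Cyp27a1 in 2 and of Apoe in 9, and of Tm7sf2, Mbtps2 and Acss2 in none. With the replicate block over both lines, Ggps1 (adjusted p = 0.0567) and Apoe (adjusted p = 0.0501) were no longer called. The same held for Gpam (0.0632) and Cyp27a1 (log2 fold change -0.79, adjusted p = 0.0640) with the interferon-stimulated mean as a term, and for Scap (0.100), Gpam (0.216), Cyp27a1 (0.05002) and Apoe (0.519) without a term for line, again as adjusted p.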
